A study of Homo sapiens with 21 samples.

Results

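Overexpression of the splicing factor SRSF3 in HCC1806 cells was examined by comparing 3 RNA-seq libraries of the SRSF3-OE line with 3 libraries of its control line, 6 of the 21 libraries of the study. The members were chosen by their titles alone, and every gene that passed the count filter was compared. HCC1806 is an established human breast cancer cell line of the triple-negative class, which lacks high levels of the hormone receptors and HER2. The control, 1xCtrl, carried a single control plasmid, and the SRSF3-OE line is labelled as overexpressing SRSF3. Both were adherent cultures in serum-containing medium, collected near confluence, and no drug treatment is named for either. The promoter of the plasmid, and whether each line was a clone or a pool, are not given in the sources used here. Nothing in the labels says that replicates came from separate cultures, so the p-values measure the spread between these libraries, which may be technical. Lines labelled as overexpressing SRSF7 or SRSF2 (SRSF7-OE and SRSF2-OE, 3 libraries each, same cell line and count table) were used to show where SRSF3-OE differed. A line labelled as carrying all 3 factors (3xSR) and its own control (3xCTL), 3 libraries each, gave values from a separate count table. That table also holds 3 libraries of a line labelled as overexpressing MYC (MYC-OE). They shared the filter, scaling and estimate of spread of the 3xSR comparison but are not described here.

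SRSF3 is the smallest of the SR proteins, a family with an RNA-recognition domain and a tail rich in arginine and serine. SR proteins bind exonic sequences, recruit the spliceosome and accompany messages through export and translation. SRSF3 also regulates its own message by including an exon that leads to nonsense-mediated decay, and it is known as a proto-oncogene product that is often abundant in tumours. Counts of this kind sum all messages of a gene, so splice isoforms could not be compared.

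The libraries held between 178174642 and 234276231 counts each. The unit of level is CPM, the count per mega-count of a library whose size was scaled by the TMM method, and a change as a log2 fold change. A gene was called when its Benjamini-Hochberg adjusted p in edgeR's quasi-likelihood test was under 0.05. Of the epithelial markers fixed for the check of cell type, all 9 were present, with a summed level of 4860 to 5860 CPM in 1xCtrl and 5370 to 5880 CPM in SRSF3-OE. Summed leukocyte markers reached at most 4.3 CPM in 1xCtrl and 2.25 CPM in SRSF3-OE, with MS4A1 at 0 in all 6 libraries, and summed endothelial markers at most 0.722 and 0.503 CPM. Summed fibroblast markers lay between 35.4 and 42.3 CPM in 1xCtrl and between 27.1 and 28.5 CPM in SRSF3-OE; their part in the results was not tested. In bulk cultures, fewer cells of a type and less RNA per cell cannot be told apart. Among the control libraries, 1xCtrl replicate 2 stood apart: the chi-square per degree of freedom was 194 and 275 against the other two control libraries, and 26.2 between those. Without that library 4094 genes were called higher and 3970 lower, in place of 3666 and 3442.

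SRSF3 itself (chromosome 6, 36594353 to 36605600, GENCODE release 29 on GRCh38) measured 375, 335 and 414 CPM in the 1xCtrl libraries and 539, 519 and 519 CPM in the SRSF3-OE libraries. The groups did not overlap, and the message was 1.4-fold higher, or 0.49 ± 0.0702 (SE) on the log2 scale, with an adjusted p of 0.000193 by edgeR. Counts from the plasmid and from the cells' own gene cannot be told apart. SRSF3-OE also exceeded SRSF7-OE in SRSF3, by 0.41 on the log2 scale (edgeR adjusted p = 0.000565). Against SRSF2-OE the difference was 0.19 and missed the threshold (edgeR adjusted p = 0.0586). The messages of the related factors SRSF7 and SRSF2 measured 363 and 444 CPM in 1xCtrl and 382 and 448 CPM in SRSF3-OE, and neither was called (edgeR adjusted p = 0.356 and 0.926). Of the 14 SR proteins and TRA2 factors, 3 were called higher (21.4%) and 1 lower (7.14%), so most of the family was not called. Among all genes tested these shares were 15.0% and 14.1%. TRA2B, a splicing activator, rose from 285 to 336 CPM, SRSF9 rose from 144 to 165 CPM, and TRA2A, the close relative of TRA2B, fell from 129 to 94.9 CPM. With total counts alone as library sizes, 1 member was called higher and 2 lower.

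SRSF3-OE differed from 1xCtrl in 29.2% of the 24362 genes tested; 15.0% were called higher and 14.1% lower. Among called genes, the median loss was larger than the median gain, and gains outnumbered losses among well-expressed genes. The 3666 genes called higher had a median log2 fold change of 0.39, and 328 of them rose by at least 1 on that scale. The 3442 genes called lower had a median of -0.69, and 1096 fell by at least 1. Among the 11444 genes averaging 5 CPM or more in the 6 libraries, 3105 were called higher (27.1%) and 1662 lower (14.5%), and the median over all of them was 0.07. Protein-coding genes made up most of the gains: of 15728 tested, 3342 were called higher and 2519 lower. Of 2146 long intergenic RNAs, 92 were called higher (4.29%, against 15.0% of all genes) and 279 lower, a share close to the 14.1% of all genes. Of 1878 genes annotated as antisense, 57 were called higher (3.04%) and 242 lower (12.9%), the latter share also close to that of all genes. The strand setting of the counting is not given, so an antisense gene and its partner may share reads. The direction split depended on scaling: gains made up 51.6% of calls under TMM, 38.6% when upper quartiles set the scale and 32.1% under total counts alone. Total counts alone moved the median of all genes from -0.03 to -0.14.

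The largest gains included a secreted cytokine, ion channels and adhesion or signalling proteins of the cell surface. IL24 (chromosome 1, 206897443 to 206904139), a secreted cytokine of the IL-10 family, measured 0.931, 0.78 and 0.837 CPM in 1xCtrl and 15.5, 15 and 15.3 CPM in SRSF3-OE. The control libraries were all under 1 CPM, and the message was 18-fold higher in SRSF3-OE (change of 4.17 ± 0.198 on the log2 scale, SE; adjusted p = 3.42e-08 by edgeR). TRPC6 (chromosome 11, 101451564 to 101872562), a calcium-permeable cation channel, measured 6.99, 5.59 and 6.37 CPM in 1xCtrl and 49.1, 43 and 45.2 CPM in SRSF3-OE. The lowest SRSF3-OE library was far above the highest control library, and the log2 rise was 2.86 ± 0.114 (SE), with an adjusted p of 7.45e-09 by edgeR. ITGA4, the integrin chain that pairs with beta-1 to bind fibronectin and VCAM1, rose from 1.65 ± 0.14 to 9.94 ± 1.13 CPM (SD, n = 3).

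PTGS2, the inducible cyclooxygenase that starts prostaglandin synthesis, measured 84.1, 64.7 and 82.4 CPM in 1xCtrl and 267, 228 and 230 CPM in SRSF3-OE. Every SRSF3-OE library was well above every control library, a 3.14-fold difference (change of 1.65 ± 0.0949 on the log2 scale, SE; adjusted p = 1.27e-07 by edgeR). SERPINB2, an inhibitor of plasminogen activators, measured 54.8, 46.2 and 58 CPM in 1xCtrl and 205, 187 and 185 CPM in SRSF3-OE. This was a rise of 3.63-fold, again with no overlap; the gene shares exon sequence with SERPINB10 on the same strand, so part of its counts may belong there. RGS4, which speeds the switching off of G proteins, rose 3.63-fold, and NPFFR2, a receptor for RF-amide neuropeptides, rose 3.17-fold. IL13RA2, a decoy receptor for interleukin 13, rose 3.3-fold, and ABCC9, the regulatory subunit of ATP-sensitive potassium channels, 3.73-fold. AJAP1, a membrane protein of adherens junctions, rose 3.32-fold and RNASE7, a secreted antimicrobial ribonuclease, 3.25-fold. The carboxypeptidase M gene CPM rose 3.74-fold; its exons overlap those of PRELID2P1 on the same strand and those of MDM2 on the other.

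The largest losses included secreted and surface proteins of mucus-producing and stratified epithelium. AGR2 (chromosome 7, 16791811 to 16833433), a protein disulphide isomerase of the endoplasmic reticulum needed for mucin production, measured 80.6, 66.6 and 82.9 CPM in 1xCtrl and 12.4, 12 and 11.8 CPM in SRSF3-OE. The SRSF3-OE libraries were close together and far below the control, 6.36-fold lower (change of -2.67 ± 0.095 on the log2 scale, SE; adjusted p = 4.25e-09 by edgeR). KRT4, a keratin of the upper layers of moist stratified epithelia, measured 174, 193 and 173 CPM in 1xCtrl and 33.6, 31 and 37.8 CPM in SRSF3-OE. It was 5.28-fold lower with no overlap (change of -2.40 ± 0.0877 on the log2 scale, SE; adjusted p = 4.25e-09 by edgeR). CLDN8, a tight-junction claudin, measured 31.7, 25.4 and 30.3 CPM in 1xCtrl and 4.33, 4.57 and 4.97 CPM in SRSF3-OE. That was a fall of 6.3-fold, nearly the size of the change in AGR2.

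Mucins, serine proteases and matrix proteins were further products among the leading losses. The membrane mucins MUC16 and MUC20 fell 4.93-fold and 4.17-fold; MUC20 shares exons with MUC20-OT1. CEACAM6, a cell-surface glycoprotein of mucosal epithelia, fell 6.14-fold, from 11.6 ± 1.59 to 1.89 ± 0.0293 CPM, and shares exon sequence with the gene ENSG00000267881. Among serine proteases and their inhibitors, SPINK5 fell 4.91-fold and TMPRSS4 4.86-fold. HMCN1 (hemicentin 1), a very large matrix protein, fell 5.85-fold, and the matrix protein MXRA5 fell 5.08-fold. GGT6, of the gamma-glutamyltransferase family, fell 5.48-fold and the methyltransferase METTL7A 4.9-fold. All 24 leading genes were protein-coding, and none of their groups overlapped, which the rule for naming them required.

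**Figure D1:**
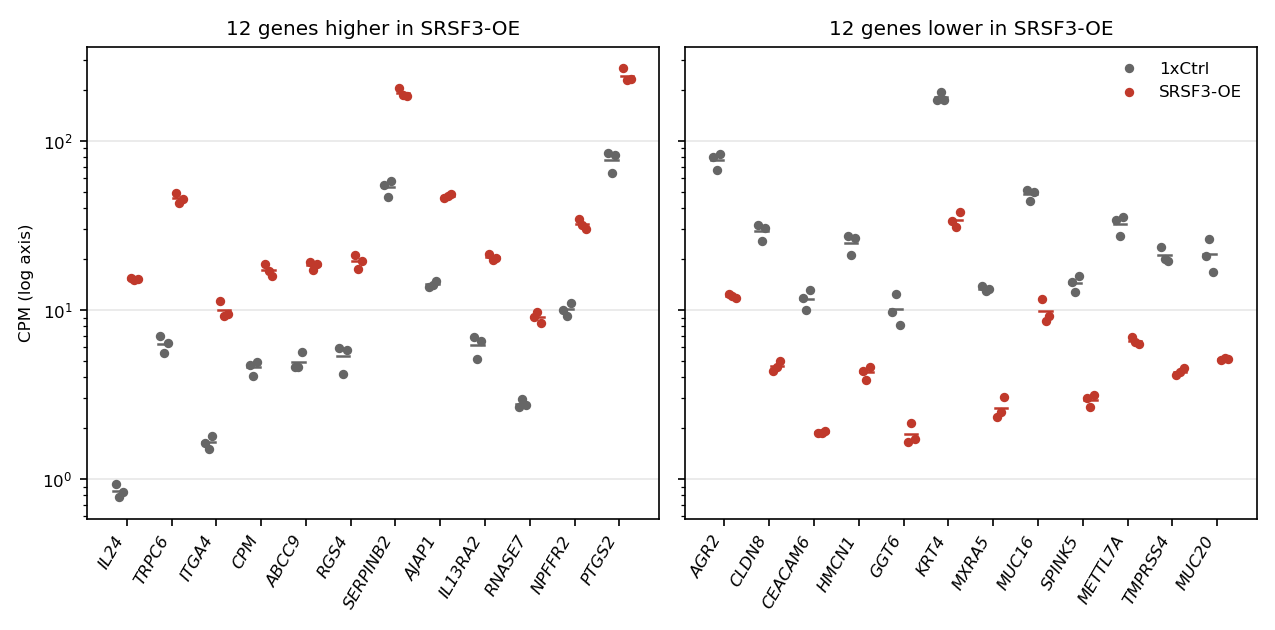
CPM on a log axis of the 12 called genes that rose most and the 12 that fell most on the log2 scale, among those with a mean of at least 5 CPM and no overlap; points are libraries (3 per group) and short lines are group means. IL24 sits near 1 CPM in 1xCtrl and near 15 CPM in SRSF3-OE, and KRT4 falls from about 180 to 34.2 CPM.

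In absolute terms the largest gains were in abundant messages of cell attachment and its remodelling. CD44, the hyaluronan receptor, measured 8345, 7179 and 8222 CPM in 1xCtrl and 13160, 11873 and 11888 CPM in SRSF3-OE. It was already among the most abundant messages and rose 1.55-fold (change of 0.64 ± 0.082 on the log2 scale, SE; adjusted p = 8.61e-05 by edgeR). MMP1, the interstitial collagenase, measured 1181, 978 and 1267 CPM in 1xCtrl and 2717, 2493 and 2508 CPM in SRSF3-OE. That was a 2.25-fold rise. LAMB3, the beta chain of laminin 332 of the epithelial basement membrane, measured 861, 1217 and 722 CPM in 1xCtrl and 2212, 2034 and 2124 CPM in SRSF3-OE. The control library that stands apart, replicate 2, gave the highest control value of LAMB3, and all 3 SRSF3-OE libraries still exceeded it. ITGA6, the integrin chain that binds that laminin, rose from 1593 to 2661 CPM, TFRC, the transferrin receptor, from 1161 to 1954 CPM, and HSP90AA1, a stress-inducible chaperone, from 2339 to 3267 CPM.

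The largest absolute losses were in a lipid enzyme, keratins and surface proteins. SCD, the stearoyl-CoA desaturase that makes monounsaturated fatty acids, fell from 2523 to 1594 CPM. KRT5, the basal keratin, measured 2062, 2422 and 1968 CPM in 1xCtrl and 1719, 1600 and 1666 CPM in SRSF3-OE, a 1.29-fold fall. KRT19, a keratin of simple and luminal epithelium, measured 488, 869 and 421 CPM in 1xCtrl and 298, 274 and 329 CPM in SRSF3-OE. Here 1xCtrl replicate 2 was far above the other two controls, and the call (log2 fold change -0.98, edgeR adjusted p = 0.0136) was lost in the fit of the 2 groups alone (edgeR adjusted p = 0.0635) and without SRSF3-OE replicate 1 or 2 (edgeR adjusted p = 0.0533 in each). GPNMB, a transmembrane glycoprotein, fell from 742 to 359 CPM, CD109, a surface protein that binds TGF-beta, from 709 to 453 CPM, and the carboxypeptidase CPA4 from 895 to 670 CPM.

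Keratins showed a divided pattern. Of 23 tested, 4 were called higher (17.4%) and 10 lower (43.5%), against 15.0% and 14.1% of all genes tested. The lists below are read beside these shares, and beside 27.1% higher and 14.5% lower among genes averaging 5 CPM or more. The 4 higher keratins are known from basal or activated epidermal cells, but the basal keratins KRT5 and KRT15 were called lower. KRT14, the partner of KRT5, measured 465, 677 and 388 CPM in 1xCtrl and 988, 893 and 1064 CPM in SRSF3-OE. KRT17 measured 54.7, 96.5 and 45.2 CPM in 1xCtrl and 197, 178 and 220 CPM in SRSF3-OE, a 3.03-fold rise (change of 1.60 ± 0.247 on the log2 scale, SE; adjusted p = 0.0011 by edgeR). KRT6A rose from 638 to 1004 CPM and KRT16 from 12.9 to 23.9 CPM, each without overlap. KRT14, KRT16 and KRT17 have near-identical copies in the genome, and KRT6A has the close relatives KRT6B and KRT6C, so their counts are uncertain to that extent. Losses beside KRT4 were led by KRT13, its partner in moist epithelia, which measured 281, 350 and 248 CPM in 1xCtrl and 71.5, 72.8 and 83.4 CPM in SRSF3-OE. KRT15 fell from 51.5 to 22.1 CPM, and KRT78 from 0.698 to 0.291 CPM. The simple-epithelial keratins KRT8, KRT18 and KRT7 were not called, at 304, 373 and 351 CPM in 1xCtrl and 272, 366 and 348 CPM in SRSF3-OE.

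**Figure D2:**
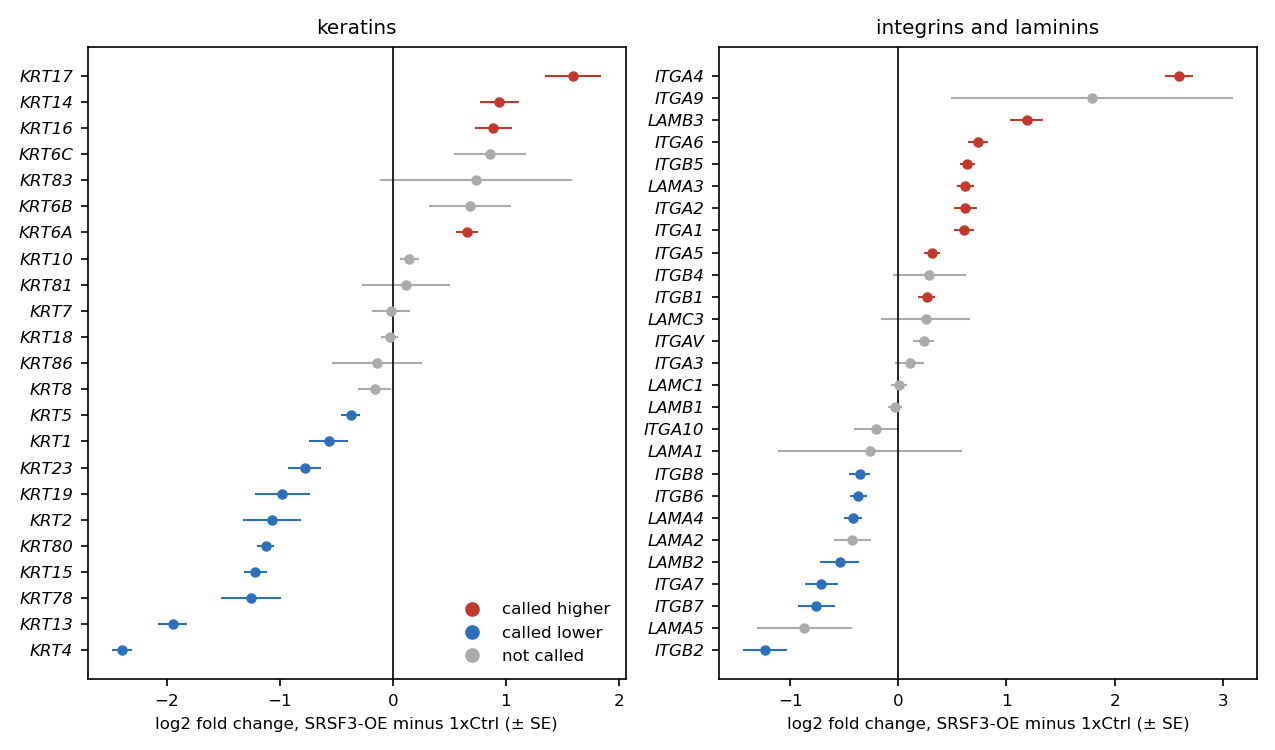
Log2 fold change of SRSF3-OE minus 1xCtrl with its standard error for the tested keratins (23) and for the integrin and laminin chains reported here; red points were called higher, blue lower and grey not called. KRT17 and KRT14 lie at the higher end and KRT4 and KRT13 at the lower end of the keratins, and ITGA4 and LAMB3 lead the called adhesion genes.

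Most luminal and secretory genes fell: of 22 tested, 14 were called lower (63.6%) and 1 higher (4.55%). The median log2 fold change was -1.72, against -0.03 over all genes. MUC4, a membrane mucin that partners ERBB2, fell from 2.06 to 0.239 CPM. CEACAM5 fell from 1.38 to 0.171 CPM; it shares exon sequence with the same gene as CEACAM6. ELF5, a transcription factor of milk-producing alveolar cells, fell from 1.46 to 0.227 CPM. The single member called higher, TSPAN8, measured 0.0121 CPM in 1xCtrl and 0.0473 CPM in SRSF3-OE with overlapping groups, both levels being very low. The progesterone receptor PGR, a luminal hormone receptor, had 264, 262 and 230 counts in the 1xCtrl libraries and 6, 0 and 1 counts in the SRSF3-OE libraries, so a low control level fell to between 0 and 6 counts.

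Of 38 genes of squamous differentiation and desmosomes, 15 were called lower (39.5%), 2 higher (5.26%) and 21 in neither direction. FLG, the filaggrin that bundles keratin in cornified cells, fell from 0.847 to 0.102 CPM, and SPRR3, a cornified-envelope protein, from 4.27 to 1.05 CPM. S100A8, one of a pair of inflammation-linked calcium-binding proteins, fell from 9.05 to 2.73 CPM, and S100A7 from 0.18 to 0.0408 CPM. The desmosomal plakophilin PKP2 and the protease KLK5 were the members called higher, at 91.7 and 122 CPM in SRSF3-OE against 80.4 and 79.3 CPM in 1xCtrl. TP63, the transcription factor that defines basal squamous cells, measured 187 CPM in 1xCtrl and 219 CPM in SRSF3-OE and missed the threshold (edgeR adjusted p = 0.0544). Of 23 claudins and tight-junction genes, 9 were called lower (39.1%) and 2 higher (8.7%). Beside CLDN8, the scaffold protein TJP3 fell from 1.17 to 0.227 CPM, CLDN10 from 2.27 to 0.753 CPM and the cingulin-like CGNL1 from 2.59 to 1.04 CPM, whereas occludin (OCLN) rose from 14.6 to 20.9 CPM.

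Markers of the epithelial-mesenchymal transition moved both ways, with 7 of 24 called higher (29.2%) and 5 lower (20.8%). The share called higher lay near the 27.1% of genes averaging 5 CPM or more. ZEB1, a repressor of E-cadherin, rose from 0.253 to 0.747 CPM, TWIST2 from 1.76 to 3.25 CPM and SNAI2 from 31 to 52.1 CPM. ELF3, an epithelial transcription factor, measured 47, 55.5 and 44.6 CPM in 1xCtrl and 17.8, 16.7 and 19.3 CPM in SRSF3-OE. E-cadherin (CDH1) fell from 407 to 324 CPM, fibronectin (FN1) fell from 39.2 to 32.8 CPM, and S100A4, usually read as a mesenchymal marker, fell from 16.1 to 8.61 CPM. The epithelial adhesion molecule EPCAM was not called, at 630 and 659 CPM. Of 17 stem cell markers, 6 were called higher (35.3%) and 3 lower (17.6%). PROM1 (CD133) rose from 0.33 to 1.26 CPM and SOX9 from 7.36 to 12.8 CPM, whereas the retinal dehydrogenase ALDH1A1 fell from 22 to 5.46 CPM and LGR6 from 2.79 to 0.616 CPM.

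Of 28 integrins and laminins, 10 were called higher (35.7%) and 7 lower (25.0%), or 8 and 8 under total counts alone. LAMB3 rose as given above, and LAMA3, the alpha chain of the same laminin, named after its value was seen, rose from 543 to 834 CPM. Among the losses, the leukocyte-type integrin chain ITGB2 fell from 1.51 to 0.644 CPM and LAMB2 from 73.8 to 50.8 CPM. Of 32 matrix glycoproteins, 14 were called lower (43.8%) and 7 higher (21.9%). Perlecan (HSPG2) measured 40.4, 91 and 27.2 CPM in 1xCtrl and 18.7, 18.7 and 21.6 CPM in SRSF3-OE, the spread in the control being set by replicate 2. FBLN2 fell from 6.52 to 2.26 CPM. MFAP5, a protein of elastic microfibrils, measured 51.2, 45.1 and 55.2 CPM in 1xCtrl and 140, 140 and 139 CPM in SRSF3-OE. Versican (VCAN) rose from 3.41 to 9.84 CPM, THBS2 from 1.45 to 3.47 CPM and CCN2, a matricellular growth factor, from 15.2 to 33.8 CPM. Of 26 collagens, 3 were called higher (11.5%) and 6 lower (23.1%). With the GC trend removed these counts were 7 and 5, and without 1xCtrl replicate 2 they were 6 and 5. LUM (lumican), a collagen-binding proteoglycan in the fibroblast marker list, had 4103, 3664 and 4117 counts in 1xCtrl and 1348, 1020 and 1458 counts in SRSF3-OE. The markers of that list did not move together. THY1 was called higher, with 1264, 2131 and 1296 counts in 1xCtrl and 2240, 2343 and 2738 in SRSF3-OE (edgeR adjusted p = 0.000542). PDGFRB was called lower (log2 fold change -1.28), and the rest of the list was not called.

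Of 34 matrix proteases and genes of the plasminogen system, 12 were called higher (35.3%) and 6 lower (17.6%). MMP3 (stromelysin 1) measured 1.43, 1.04 and 1.29 CPM in 1xCtrl and 6.45, 5.81 and 5.74 CPM in SRSF3-OE, a 4.79-fold rise with no overlap. MMP1 and MMP3 both overlap exons of WTAPP1 on the opposite strand. SERPINB2 rose as given above, and the metalloprotease ADAMTS15 rose from 0.583 to 1.42 CPM. MMP13, another collagenase, fell from 10.5 to 3.23 CPM, in the direction opposite to MMP1, and the cathepsin CTSV fell from 79.9 to 57.3 CPM.

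Cytokine and chemokine genes were mostly higher: of 30 tested, 18 were called higher and 2 lower, with a median log2 fold change of 0.72. Beside IL24, its family member IL20 rose from 0.121 to 0.694 CPM, and the inflammatory cytokine IL6 from 0.201 to 0.874 CPM. CCL20, which attracts CCR6-bearing lymphocytes, rose from 1.2 to 3 CPM. The interleukin 1 receptor antagonist IL1RN fell from 5.09 to 3.66 CPM and CCL28 from 14.1 to 10.8 CPM. Summed leukocyte markers stayed at or below 4.3 CPM and lay lower in SRSF3-OE than in 1xCtrl.

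AP-1 transcription factors and immediate early genes gave 12 members called higher (54.5%) and 0 lower of 22 tested, or 10 and 2 under total counts alone. FOSL1, the Fos-related AP-1 subunit of many carcinoma cells, measured 30.7, 36.1 and 28.2 CPM in 1xCtrl and 64.4, 68.8 and 64.1 CPM in SRSF3-OE. JUN, its dimer partner, measured 13, 17.2 and 13.1 CPM in 1xCtrl and 27.7, 26.5 and 27.4 CPM in SRSF3-OE. Both subunits were higher in every SRSF3-OE library than in any control library, 2.08-fold for FOSL1 and 1.88-fold for JUN. ATF3 rose from 6.21 to 14.2 CPM and the phosphatase DUSP1, a feedback inhibitor of MAP kinases, from 5.3 to 12.7 CPM. Of 17 genes of the EGFR family and its ligands, 8 were called higher (47.1%) and 5 lower (29.4%). The ligands epiregulin (EREG), amphiregulin (AREG) and TGFA rose from 131 to 263, from 47.2 to 88.8 and from 152 to 258 CPM. The ligand EGF fell from 39.6 to 24.8 CPM and NRG4 from 4.98 to 3.39 CPM, and the receptor EGFR was not called, at 811 and 850 CPM.

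AP-1 factors bind the consensus TGACTCA, which reads TGAGTCA on the other strand. Either form was searched in the 250 bases before a single RefSeq start site of each gene (GRCh38.p14). Further start sites, where a gene has them, were not searched. The search was added after the data were seen. The consensus occurs in 3.2% of the promoters of tested genes with an entry. Of the leading genes, 10 higher and 6 lower had an entry, and 0 of them held it. Among the 71 genes called higher by at least 1 on the log2 scale at a mean of at least 5 CPM, 54 had an entry and 3 held it (5.56%). Among the 158 called lower by the same rule, 110 had an entry and 5 held it (4.55%). A wider pattern with any base at the centre, TGANTCA, was held by 7 of those 54 and by 7 of those 110 promoters, and by 4.8% of the promoters of tested genes. SERPINB2 and RNASE7 were the leading genes with the wider pattern, and their windows are printed 5′ to 3′ with it in capitals to show that the central base is not that of the consensus. The SERPINB2 window lies on chromosome 18 (chr18:63887455-63887704, plus strand) and that of RNASE7 on chromosome 14 (chr14:21042112-21042361, plus strand), and in both the match begins 102 bases before the start site.
SERPINB2: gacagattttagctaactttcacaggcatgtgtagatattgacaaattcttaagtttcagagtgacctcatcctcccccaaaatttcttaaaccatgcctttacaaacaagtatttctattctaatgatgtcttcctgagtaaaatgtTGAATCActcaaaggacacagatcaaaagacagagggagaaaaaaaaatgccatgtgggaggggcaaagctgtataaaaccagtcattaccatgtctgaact
RNASE7: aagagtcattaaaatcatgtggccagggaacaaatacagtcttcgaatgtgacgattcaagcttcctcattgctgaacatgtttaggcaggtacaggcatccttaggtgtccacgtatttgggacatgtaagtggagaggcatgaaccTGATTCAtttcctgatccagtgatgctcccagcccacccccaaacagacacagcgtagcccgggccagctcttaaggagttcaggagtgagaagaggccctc
A match is a description of these letters and not a binding site.

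Many genes that build ribosomes rose, and none of the listed ones was called lower. Of 32 genes of ribosome biogenesis and nucleotide synthesis, 25 were called higher and 0 lower (78.1%), against 27.1% higher among all genes with a mean of at least 5 CPM. ODC1, the first enzyme of polyamine synthesis, measured 91.6, 80.9 and 98.7 CPM in 1xCtrl and 239, 218 and 241 CPM in SRSF3-OE. It stood apart from the rest of the list at 2.57-fold (change of 1.36 ± 0.0795 on the log2 scale, SE; adjusted p = 1.39e-07 by edgeR). UTP20, a component of the small-subunit processome, rose from 72.5 to 111 CPM, NOB1, which trims the small-subunit RNA, from 35.9 to 59.1 CPM, and PES1, of large-subunit assembly, from 71.5 to 109 CPM. Of 78 cytosolic ribosomal protein genes, 45 were called higher (57.7%) and 0 lower, with a median log2 fold change of 0.27. RPL24 rose from 280 to 438 CPM, RPS26 from 105 to 144 CPM, RPS21 from 107 to 150 CPM and RPS13 from 325 to 443 CPM. Ribosomal protein genes have many processed copies, so their counts are uncertain to that extent, and the number called was 21 with total counts alone, 27 with upper-quartile scaling and 60 with the GC trend removed. Ribosome biogenesis genes numbered 17 higher with total counts alone, 16 in the fit of the 2 groups and 30 without 1xCtrl replicate 2. MYC, a driver of ribosome biogenesis, measured 131, 143 and 125 CPM in 1xCtrl and 162, 157 and 159 CPM in SRSF3-OE (log2 fold change 0.26, edgeR adjusted p = 0.00406). Its call was lost with total counts alone (edgeR adjusted p = 0.0863) and in 5 of the 6 fits that left out a library. The 13 messages of the mitochondrial genome gave 0 calls in either direction, with a median of 0.10.

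Most RNA-processing factors were not called. Most of their lists still had a share of higher calls above the 27.1% of all genes averaging 5 CPM or more. It was 56.2% for factors of nonsense-mediated decay, 46.7% for its reported targets and 41.4% for hnRNPs and related regulators. Speckle and paraspeckle genes had 38.5%, cleavage, polyadenylation and export 37.0%, and SR protein kinases, phosphatases and importers 33.3%. Genes reported as SRSF3 targets lay below 27.1%. In each of these lists the number called higher fell under total counts alone. Of 16 factors of nonsense-mediated decay, 9 were called higher and 0 lower (5 and 0 under total counts alone and in the fit of the 2 groups); RBM8A and MAGOH, which form a pair in the exon junction complex, rose from 68.9 to 97 and from 29.4 to 38.6 CPM. Of 15 genes whose messages are reported targets of that decay, 7 were called higher and 0 lower, with GADD45A at 19.2 and 30.8 CPM and ZFAS1 at 92.1 and 141 CPM. Of 29 hnRNPs and related regulators, 12 were called higher and 1 lower (5 and 1 under total counts alone), HNRNPAB rising from 140 to 194 CPM and PCBP1 falling from 179 to 156 CPM. Of 27 factors of cleavage, polyadenylation and export, 10 were called higher and 0 lower (7 and 2 under total counts alone); the export adaptor ALYREF rose from 33.9 to 50.9 CPM. Of 13 speckle and paraspeckle genes, 5 were called higher, but 1 with total counts alone or upper-quartile scaling, and the scaffold RNAs MALAT1 and NEAT1 were not called. Of 12 kinases, phosphatases and importers of SR proteins, 4 were called higher and 2 lower (0 and 2 under total counts alone); CLK2 fell from 106 to 81.1 CPM. Of 10 genes reported as SRSF3 targets, MCL1 and PLK1 were called higher and PDCD4, whose splicing and translation SRSF3 is reported to control, fell from 47.5 to 35.8 CPM.

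Cell-cycle lists moved little. Of 33 DNA replication genes, 10 were called higher (30.3%) and 2 lower (6.06%), but 0 and 4 under total counts alone, so no direction held across scalings. Of 34 mitosis genes, 8 were called higher (23.5%) and 1 lower (2.94%), but 3 and 4 under total counts alone. Of 17 G1 cyclins and CDK inhibitors, 5 were called higher (29.4%) and 2 lower (11.8%), near the shares of genes averaging 5 CPM or more. The CDK inhibitor CDKN1A measured 19.6, 22.7 and 20.1 CPM in 1xCtrl and 45.4, 41.7 and 43.8 CPM in SRSF3-OE, and cyclin E1 (CCNE1) 47.8, 50.6 and 51.7 CPM and 80.2, 83.4 and 82.2 CPM. Both rose without overlap. Cyclin D2 (CCND2) rose from 0.458 to 2.16 CPM, whereas E2F2 fell from 26 to 18.8 CPM and E2F1 from 60.3 to 45.3 CPM. Of 18 BCL2 family genes, 5 were called higher (27.8%) and 2 lower (11.1%), again near those shares. The survival factor MCL1 rose from 156 to 205 CPM, and the pro-apoptotic PMAIP1 (NOXA) rose as well, from 10.1 to 14.1 CPM, whereas BMF fell from 2.03 to 1.18 CPM.

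Lipid synthesis and stress-response genes were more often lower than higher. Of 28 genes of cholesterol and fatty acid synthesis, 11 were called lower (39.3%) and 2 higher (7.14%), or 17 and 0 under total counts alone. The desaturase FADS2 fell from 132 to 73.3 CPM, its neighbour FADS1 from 187 to 111 CPM, and the sterol carrier STARD4 from 59 to 35.5 CPM. FADS1 and FADS2 overlap each other on opposite strands, and a replicate block gave 7 lower and 1 higher. Of 28 genes of the integrated stress and unfolded protein responses, 10 were called lower (35.7%) and 5 higher (17.9%). Asparagine synthetase (ASNS) measured 53.9, 49.7 and 54.9 CPM in 1xCtrl and 27.5, 24.2 and 23.6 CPM in SRSF3-OE. DDIT4, an inhibitor of mTORC1, fell from 167 to 80.7 CPM and PHGDH, the first enzyme of serine synthesis, from 117 to 69.2 CPM. Of 29 genes of glycolysis and hypoxia, 8 were called higher (27.6%, near the 27.1% of genes averaging 5 CPM or more) and 6 lower (20.7%). Adrenomedullin (ADM) rose from 12.3 to 22.7 CPM and CA9 fell from 7.47 to 2.93 CPM.

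Immune-response and signalling lists were mixed. Of 38 interferon-stimulated genes, 10 were called lower (26.3%) and 4 higher (10.5%). IFI44L fell from 5.92 to 3.41 CPM and HERC5 rose from 5.76 to 8.57 CPM. Of 16 genes of MHC class I presentation, 3 were called higher (18.8%) and 2 lower (12.5%), but 1 and 7 under total counts alone. Of 30 genes of the TGF-beta and BMP pathways and their ID targets, 12 were called higher and 3 lower (10 and 6 under total counts alone). ID4 rose from 6.1 to 12.7 CPM, ID2 from 6.47 to 12.1 CPM and the activin subunit INHBA from 37.9 to 67 CPM, and SMAD3 fell from 74.4 to 58.2 CPM. Of 21 TRP and potassium channel genes, 6 were called higher and 6 lower (28.6% each). Beside TRPC6, the calcium-activated potassium channel KCNMA1 rose from 7.2 to 17.3 CPM, whereas KCNN4, another such channel, fell from 9.95 to 3.42 CPM. Of 12 genes of the MYC and MXD network, 4 were called higher (33.3%) and 1 lower (8.33%), or 1 and 3 under total counts alone. MXD1, a competitor of MYC for MAX, was at 32.6 and 57.5 CPM.

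**Figure D3:**
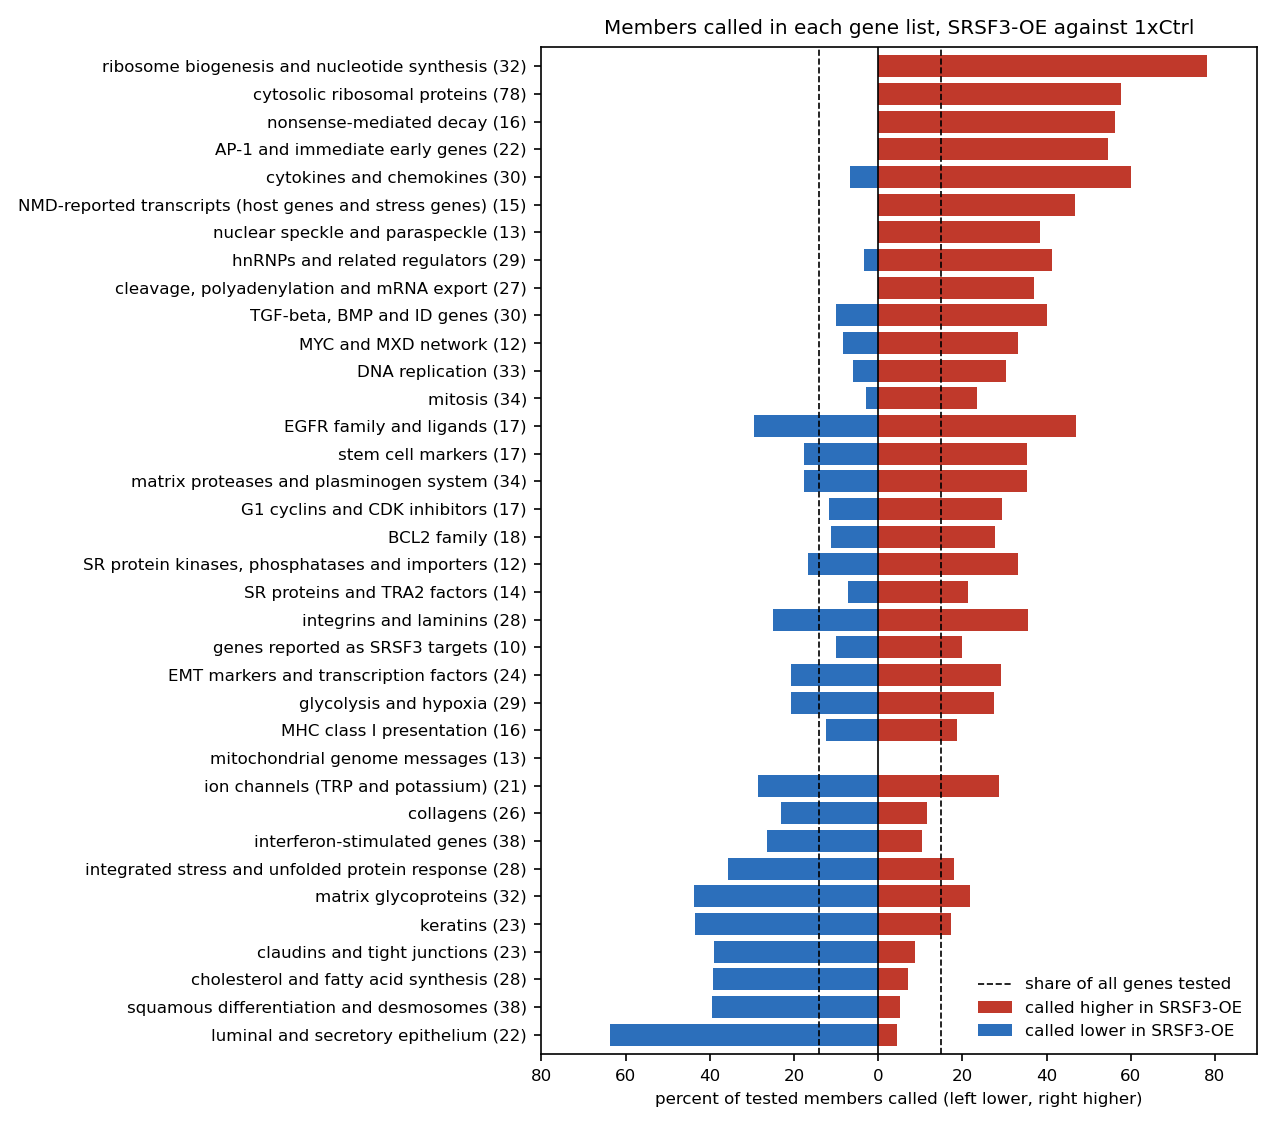
Percent of the tested members of each of 36 gene lists called higher (right) or lower (left) in SRSF3-OE against 1xCtrl, with the number tested in parentheses; dashed lines mark the share among all genes tested, 15.0% higher and 14.1% lower. Ribosome biogenesis lies farthest to the right and luminal and secretory genes farthest to the left.

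The 24 leading genes were then read in the lines labelled as overexpressing related factors. SRSF7 was called higher in SRSF7-OE than in 1xCtrl (435 and 363 CPM, edgeR adjusted p = 0.00616). In SRSF2-OE, SRSF2 was not called (398 CPM, and 444 CPM in 1xCtrl, edgeR adjusted p = 0.098). SRSF3 was called higher in SRSF2-OE (460 CPM, and 375 CPM in 1xCtrl, edgeR adjusted p = 0.00794). SRSF3-OE differed from SRSF7-OE in 35.2% of the genes tested and from SRSF2-OE in 26.8%, in direct tests between the lines. The control libraries do not enter these differences but shared the filter, scaling and estimate of spread. With only the 2 lines fitted, 9801 and 8600 genes were called, in place of 8569 and 6523. The tests use the SRSF3-OE libraries by which the 24 genes were chosen. The counts below therefore describe those genes and are no independent support. All 12 leading higher genes exceeded SRSF7-OE and all 12 leading lower genes were below it; against SRSF2-OE 11 of 12 were called in each direction. The exceptions were AJAP1, at 47 CPM in SRSF3-OE and 44.5 CPM in SRSF2-OE (edgeR adjusted p = 0.408), and HMCN1, at 4.26 and 5.29 CPM (edgeR adjusted p = 0.0544). IL24 was at 0.24 CPM in SRSF7-OE and 1.15 CPM in SRSF2-OE, both far below its 15.3 CPM in SRSF3-OE. PTGS2 was at 44.6 and 89.7 CPM in those lines and 242 CPM in SRSF3-OE. AGR2 was at 122 CPM in SRSF7-OE and 80.6 CPM in SRSF2-OE, against 12.1 CPM in SRSF3-OE. ITGA4 differed less, with 7.29 and 5.98 CPM in those lines against 9.94 CPM.

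In 3xSR against 3xCTL, 15.3% of 23160 genes were called higher and 13.7% lower, in libraries that share no sample with SRSF3-OE or 1xCtrl. All 12 leading higher genes were also called higher there, from 1.23 on the log2 scale for AJAP1 to 4.37 for TRPC6. IL24 rose by 3.37 on the log2 scale in that comparison and PTGS2 by 1.64. Of the 12 leading lower genes, 9 were also called lower there; SPINK5 (0.20) and TMPRSS4 (-0.20) were not called. CEACAM6 was called in the opposite direction, with a log2 fold change of 1.83 in 3xSR against -2.62 in SRSF3-OE. The losses were mostly smaller in 3xSR, AGR2 at -1.06 and KRT4 at -0.57, but the tables were scaled separately and the difference between them was not tested. Of the list members described above, and chosen here after their values were seen, SPRR3 was at -2.02 in SRSF3-OE and 1.79 in 3xSR, and S100A8 at -1.73 and 1.51. UTP20, chosen in the same way, was at 0.62 in SRSF3-OE and 0.03 in 3xSR.

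**Figure D4:**
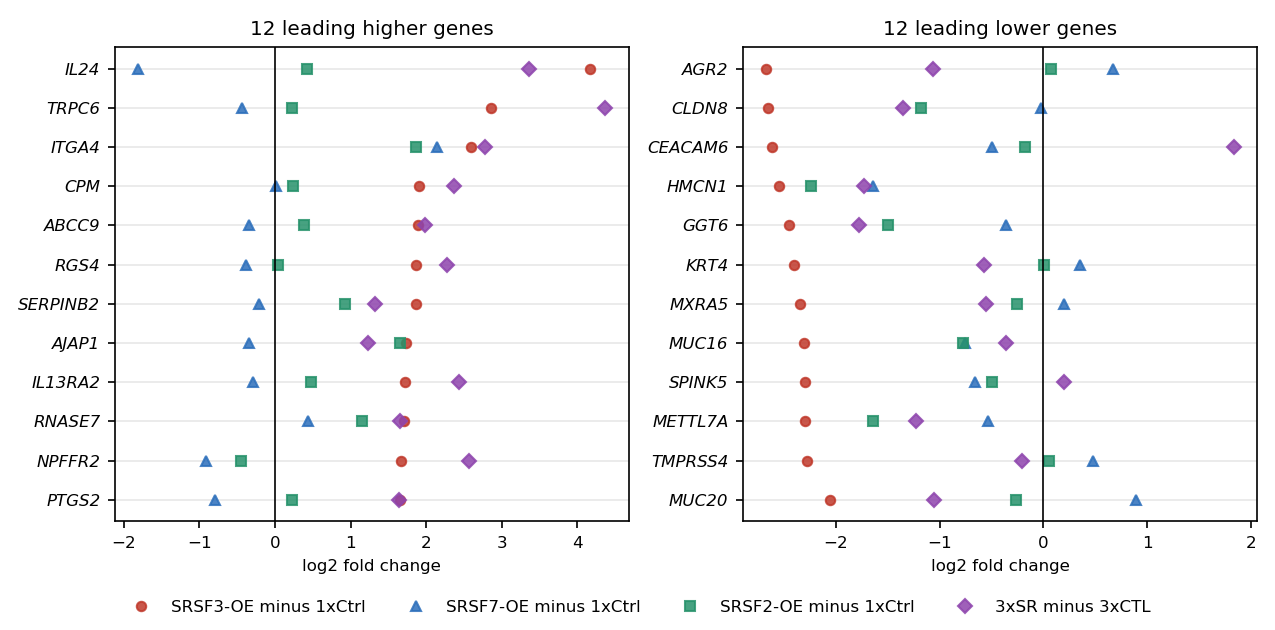
Log2 fold change of the 24 leading genes in SRSF3-OE, SRSF7-OE and SRSF2-OE, each against 1xCtrl, and in 3xSR against 3xCTL. The 3 single lines share the 1xCtrl libraries; the IL24 points lie at 4.17 in SRSF3-OE and 3.37 in 3xSR, and CEACAM6 lies on opposite sides of 0 in these comparisons.

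Changes also followed position along chromosomes, a pattern found after the data were seen, so the segments below carry no test of their own. Among protein-coding genes with a mean of at least 5 CPM, 26.7% were called higher and 13.5% lower over all chromosomes other than 3, 15 and 20. On chromosome 3 from 90 Mb to its end (GENCODE release 29, GRCh38), 220 of 317 genes were called higher (69.4%) and 18 lower, with a median log2 fold change of 0.39. Before 90 Mb, 84 of 276 genes of the same chromosome were called higher and 36 lower, with a median of 0.11. On chromosome 15 from 60 Mb on, 80 of 173 genes were called lower (46.2%) and 2 higher, with a median of -0.23, against -0.01 for the 155 genes before 60 Mb. On chromosome 20 from 30 Mb on, 103 of 197 genes were called higher (52.3%) and 16 lower, with a median of 0.28. Before 30 Mb, 36 of 96 genes were called higher (37.5%) and 16 lower, with a median of 0.12, also above the other chromosomes.

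The segment levels were read in each library as the median deviation of the genes from their mean over the 12 libraries. Each library was centred on its median over all protein-coding genes averaging 5 CPM or more. Most of these lie on the other chromosomes, so values near 0 there follow from the centring. The median log2 fold change of SRSF3-OE against 1xCtrl on those chromosomes was 0.07. On the chromosome 3 segment the deviations were -0.08, -0.20 and -0.06 in 1xCtrl and 0.21, 0.15 and 0.17 in SRSF3-OE, with no overlap. The lowest control value was that of replicate 2, which stands apart. SRSF2-OE (0.03 to 0.06) was also above every 1xCtrl library, so part of the shift against 1xCtrl was shared with that line. The median log2 fold change against 1xCtrl was 0.39 in SRSF3-OE, 0.17 in SRSF2-OE and 0.05 in SRSF7-OE. On the chromosome 15 segment the deviations were 0.00, 0.03 and 0.04 in 1xCtrl and -0.30, -0.31 and -0.33 in SRSF3-OE. All other 1xCtrl, SRSF7-OE and SRSF2-OE libraries lay above 0 on that segment. On the chromosome 20 segment SRSF2-OE (0.09 to 0.11) was above SRSF3-OE (0.03 to 0.07), so that shift was not particular to SRSF3-OE. In 3xSR against 3xCTL the medians were 0.32, -0.31 and 0.26 on these segments of chromosomes 3, 15 and 20, and -0.33 on chromosome 15 before 60 Mb. DNA copy number was not measured, and its part in these shifts was not tested.

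**Figure D5:**
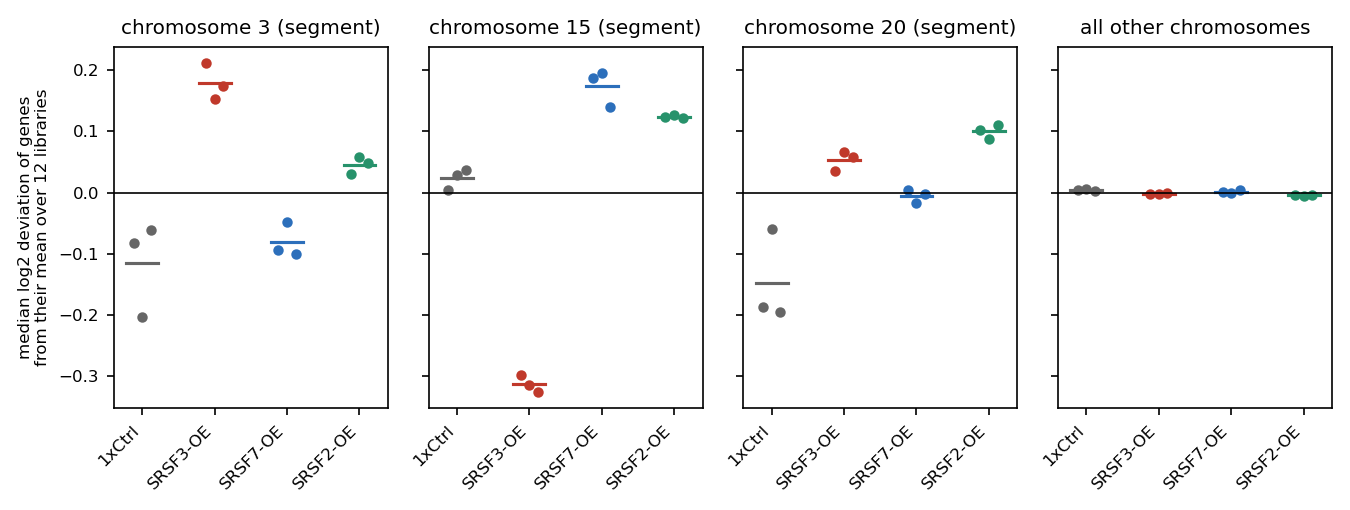
Median log2 deviation of protein-coding genes from their mean over the 12 libraries, for each library (points, 3 per group; lines are means), on the described segments of chromosomes 3, 15 and 20 and on all other chromosomes together. SRSF3-OE lies above all other libraries on chromosome 3 and below all others on chromosome 15. Each library was centred on its median over all the protein-coding genes shown or not shown by segment, so values near 0 elsewhere follow from the centring.

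Of the genes named by rule outside the lists, MUC20 and TFRC lie on the chromosome 3 segment. Members of the gene lists lie on the 3 segments too, so their changes are not separate from these shifts. Among them are 6 of 78 ribosomal protein genes, 6 of 34 mitosis genes and 5 of 22 luminal and secretory genes. The same holds for 5 of 30 TGF-beta and BMP genes and 2 of 14 SR proteins and TRA2 factors. Leaving out all genes of the 3 chromosomes, an alternative added after seeing the data, left 3108 genes called higher and 3012 lower of 21638. In that count 22 of 28 ribosome biogenesis genes and 39 of 67 ribosomal protein genes were higher, 10 of 16 luminal and secretory genes were lower, and 18 of 30 cytokine genes were higher. Of 22 TGF-beta and BMP genes 8 were higher and 1 lower, in place of 12 and 3 of 30. Of 25 mitosis genes 4 were higher and 0 lower, in place of 8 and 1 of 34. Of 12 SR proteins and TRA2 factors 2 were higher and 1 lower, in place of 3 and 1 of 14. The list members named above are not marked by position, so a named change may belong to a segment. Calls also followed base composition, read in protein-coding genes with a mean of at least 5 CPM. Of the fifth with the lowest transcript GC content (30.2% to 40.6%) 37.6% were called higher, and of the fifth with the highest (57.5% to 71.2%) 6.84%. With the GC trend of each library removed, 9299 genes were called, 4916 higher and 4383 lower.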

How the data were processed

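Polyadenylated RNA of HCC1806 cells was sequenced as paired-end reads from a stranded library kit, per the labels' protocols. The values are read counts per gene as deposited by the authors. Of the count tables, 1 holds the 12 libraries of 1xCtrl, SRSF3-OE, SRSF7-OE and SRSF2-OE and another the 3xSR, 3xCTL and MYC-OE libraries. The latter table was fitted on its own in the same way, with the MYC-OE libraries included. The submitters' processing notes name Trimmomatic 0.39, STAR, StringTie 2.1.3b and GRCh38.p13 without roles, and the strand setting of the counting is not given in the sources used here. No value was normalized before deposit as far as the values show.

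Genes with low counts were removed with edgeR's filterByExpr (minimum count 10, minimum total 15), which left 24362 of 60668. Library sizes were scaled by TMM, and edgeR 4.0.16 (R 4.3.3) fitted its quasi-likelihood model with robust dispersion to all 12 libraries, so that the groups share 1 estimate of spread. A gene was called at a Benjamini-Hochberg adjusted p under 0.05. The edgeR fit was tested on simulated data, in which 197 genes among 23744 were changed 2-fold. Of these 55.8% were recovered, and 93.1% of the 101 with at least 5 CPM, with 1.79% of calls false. The simulation held few changed genes, in random directions, and no library set apart, GC trend or shifted segment. Its share of false calls therefore need not hold for the calls reported here. Limma 3.58.1 and DESeq2 1.42.0 gave alternatives, as did other scalings and filters, a GC correction and leaving out libraries. Positions came from GENCODE release 29, which matched 58561 gene identifiers (41806 in the same version), and GC content was known for 97.7% of tested genes. Promoter sequences are from RefSeq.

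The members and gene lists were chosen with earlier results of these data known. Named genes are the 12 that rose most and the 12 that fell most on the log2 scale, among called genes averaging 5 CPM or more, without overlap between groups and with steady counting. Of the 165 genes without steady counting (at least 100 counts in 1 library and a CPM over 20 times lower in another of the same group), 3 were called. The 6 largest increases and decreases in CPM, SRSF3, SRSF2, SRSF7 and MYC, and up to 4 members of each list per direction were also named. Library totals ran from 178174642 to 234276231 in the 6 libraries compared. A few members of the lists and markers are counted in the totals but not reported here by name.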

Additional observations from a re-analysis of the deposited data

Results flagged for a closer look

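Named genes are given here where the direct test between overexpression lines passed the threshold (adjusted p under 0.05 by edgeR). The level in SRSF3-OE then differed from that in a line labelled as overexpressing a related factor. The control libraries do not enter the difference but shared the filter, scaling and estimate of spread. The test also uses the SRSF3-OE libraries by which the genes were chosen. All values are log2 differences of SRSF3-OE from the other line. IL24 was higher by 5.98 than in SRSF7-OE and by 3.74 than in SRSF2-OE, and TRPC6 by 3.30 and 2.64. The integrin chain ITGA4 was higher by 0.45 and 0.73, so the other lines held much of its level too. The carboxypeptidase M gene CPM was higher by 1.89 and 1.66, and ABCC9 by 2.24 and 1.51. Among the genes that fell, AGR2 differed by -3.34 from SRSF7-OE and by -2.74 from SRSF2-OE. CLDN8 differed by -2.63 and -1.47, CEACAM6 by -2.12 and -2.44, and GGT6 by -2.10 and -0.95. HMCN1 differed by -0.91 from SRSF7-OE, and its difference from SRSF2-OE missed the threshold.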

How the results depend on the processing

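With a minimum absolute log2 fold change of 1 inside the edgeR test, 240 genes were called against 1xCtrl, 62 higher and 178 lower, with 505 against SRSF7-OE and 212 against SRSF2-OE; SRSF3 itself, at 0.49, then had an adjusted p of 1. Total counts alone gave 2296 genes called higher and the fit of only the 2 groups compared 2218, in place of 3666. Leaving out a library in turn gave 2427 (without SRSF3-OE replicate 1) to 4094 (without 1xCtrl replicate 2) genes called higher and 5555 to 8064 called in all. Of 680 values of 40 single named genes under these alternatives, 655 stayed on the same side of the threshold, 25 lost the call with the direction kept, and no called gene changed sign; SRSF2 and SRSF7, which were not called, changed sign under some alternatives (SRSF7 to -0.04 under total counts alone, SRSF2 to -0.10). Same-numbered libraries of SRSF3-OE and 1xCtrl did not deviate together (correlations of -0.0088, -0.0229 and -0.0306). With so few libraries this cannot decide whether a number marks a shared culture or day. With a replicate block 6343 genes were called. Leaving out chromosomes 3, 15 and 20, an alternative added after seeing the data, gave 3108 higher and 3012 lower calls. Genes near a few counts per library limit what low-level lists can show, and the causes of these shifts were not tested.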
